A study of Mus musculus with 4 samples.

Results

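The small leucine-rich proteoglycans are secreted matrix proteins whose curved core of leucine-rich repeats carries glycosaminoglycan chains or sulfated sugars. They bind fibrillar collagens and set the width and spacing of the fibrils, and several also bind growth factors such as TGF-beta. Fibroblasts are a main source of them in connective tissue, the stroma of the mammary gland included. Decorin (Dcn) and biglycan (Bgn) form class I and carry chondroitin or dermatan sulfate chains. Lumican (Lum), fibromodulin (Fmod) and osteomodulin (Omd) belong to class II and can carry keratan sulfate, and osteoglycin (Ogn, also called mimecan) belongs to class III. These 6 genes were chosen by name, as members of the family, with earlier results of these data known. They are measured by 14 of the 22690 probe sets on the array, each of which names its gene alone. All 6 were among the 8687 kept genes of 12394, that is, genes whose highest log2 level over the arrays reached 4.63.

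Fibroblasts were cultured from the mammary glands of female FVB/N mice aged 9 weeks and used at the second passage, and their RNA was hybridized to Affymetrix mouse expression arrays. The 4 groups were PyMT Ets2-null (PyMT;Fsp-cre;Ets2db/loxP), PyMT Ets2-present (PyMT;Ets2db/loxP), normal Ets2-null (Fsp-cre;Ets2db/loxP) and normal Ets2-present (Ets2db/loxP) fibroblasts, with 1 array each. The comparison of interest is whether expression depends on the transcription factor Ets2 in fibroblasts, and whether it does so only where the epithelium forms tumors. PyMT, the polyoma middle T oncogene, is driven in the mammary epithelium by the MMTV promoter. All 4 groups carry Ets2db, a conventional knockout allele that lacks the DNA-binding domain, so the Ets2-present cells held 1 intact copy of the gene. The conditional loxP allele was removed by Cre under the promoter of Fibroblast Specific Protein 1, a promoter that is also active in some other cells. Both Ets2-null groups carry Fsp-cre and neither Ets2-present group does, so an effect of the transgene and of the loss of Ets2 cannot be told apart. How many mice gave each culture is not given in the sources used here. With 1 array in each group, every difference is between single arrays, without replicate check, error or test, and the number of arrays limits the precision.

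Levels are RMA values on the log2 scale, and a difference of 1 on this scale is 2-fold. They are compared between arrays for the same probe set only, and a gene with several probe sets is represented by the brightest. For orientation, the 2 brightest probe sets of the same gene disagreed with an SD of 0.68 for the Ets2 difference in PyMT fibroblasts and 0.48 in normal fibroblasts (3378 genes), and of 0.70 and 0.51 for the PyMT difference in Ets2-null and in Ets2-present fibroblasts. That SD covers the measurement by different probes on the same arrays, and not the spread between mice or cultures.

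The Ets2 probe set read 11.22 in PyMT Ets2-null and 11.21 in PyMT Ets2-present fibroblasts, and 11.89 in normal Ets2-null and 11.86 in normal Ets2-present fibroblasts. Its position relative to the deleted exons is unknown here, so it is no check of the genotypes. The fibroblast markers (Col1a1, Col1a2, Col3a1, Vim, Pdgfra, Pdgfrb, Thy1, Fap and S100a4) were at or above the filter level on all 4 arrays, 9 of 9, with a summed log2 level between 15.28 and 15.62. Macrophage markers summed to 9.65 and 10.11 in the PyMT Ets2-null and PyMT Ets2-present fibroblasts, against 8.72 and 8.87 in the normal Ets2-null and normal Ets2-present fibroblasts, with 5 or 6 of 8 above the filter level. The epithelial list summed to 7.25 in PyMT Ets2-null, 6.83 in PyMT Ets2-present, 7.46 in normal Ets2-null and 8.39 in normal Ets2-present fibroblasts, with 1 to 3 of 6 markers above the filter level. Of these, Cdh1 and Krt8 were below the filter level on every array and Krt18 was at 4.49 and 4.23 in the PyMT fibroblasts without and with Ets2, against 6.72 and 8.05 in the normal ones. Krt14 read 4.85 in PyMT Ets2-null and 2.42 in PyMT Ets2-present fibroblasts, the same direction as Ogn and Omd. Epcam shared that direction, at 5.09 in PyMT Ets2-null and 3.67 in PyMT Ets2-present fibroblasts. For Krt14 and Epcam the PyMT Ets2-present level was below the filter level. Krt5 went the other way, at 5.24 in PyMT Ets2-null and 5.53 in PyMT Ets2-present fibroblasts. The PyMT Ets2-null array had the lowest correlations with the others (0.959 to 0.969, against 0.970 to 0.985 among the other arrays) and the highest 18S ribosomal RNA signal (9.63, against 7.94 to 8.16). The part of these shifts in the results below was not tested. In RNA from a whole culture, fewer cells of a type and less RNA per cell cannot be told apart.

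The family did not move as a block. In PyMT fibroblasts Ogn and Omd were higher without Ets2, by 2.34 and 2.66 on the log2 scale, Fmod was 2.24-fold lower, Lum and Dcn were lower by less than 2-fold, and Bgn was nearly level. Thus 2 of 6 members were at least 2-fold higher, beside 7.64% of all kept genes, and 1 of 6 was at least 2-fold lower, beside 7.77%. At 4-fold the counts were 2 higher, beside 0.691% of kept genes, and 0 lower, beside 0.944%. The call of Omd rests on a PyMT Ets2-present level of 3.58, below the filter level; with low values raised to that level its difference was 1.61, past 2-fold and not 4-fold, and with the filter at the 60th percentile Omd was left out. The median difference of the 6 members was -0.27, against 0.02 for all kept genes, which hides members on both sides.

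**Figure D1:**
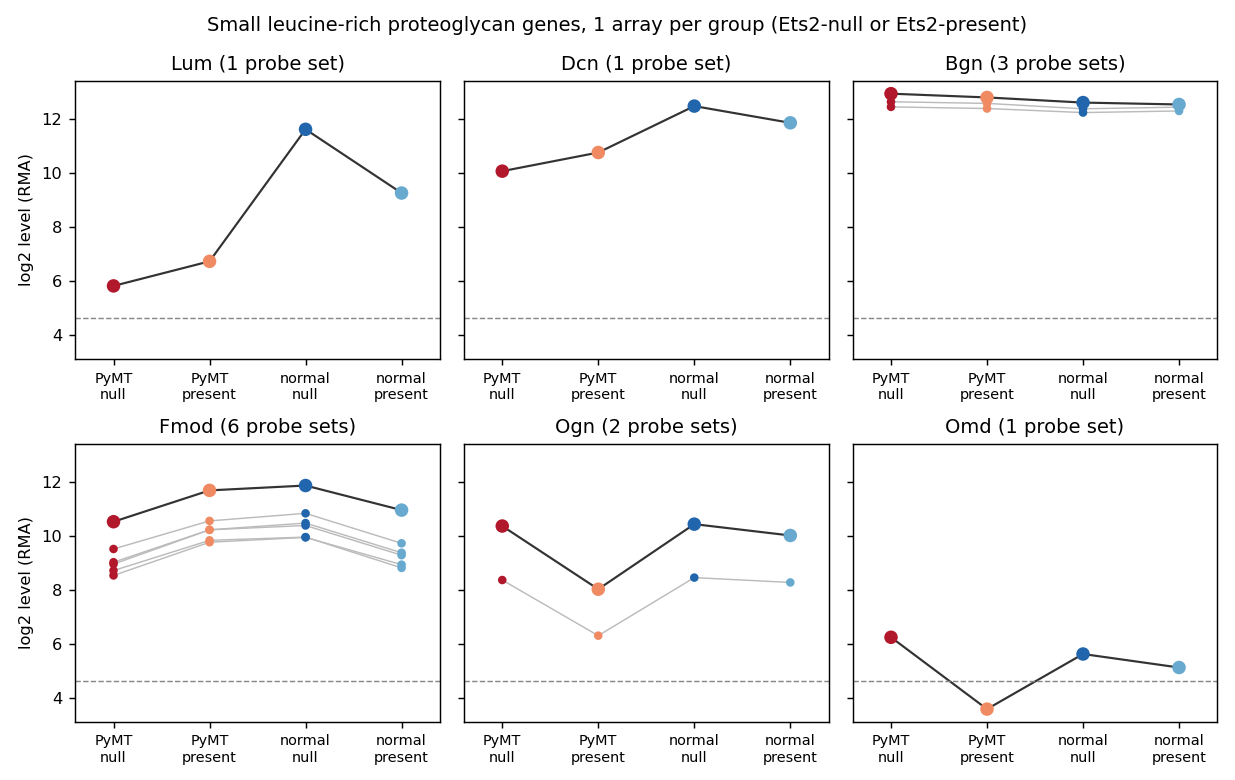
Log2 level (vertical axis, RMA) of each small leucine-rich proteoglycan gene on the 4 arrays, 1 array per group; large points joined by a dark line are the brightest probe set, small points the other probe sets of the gene, and the dashed line is the filter level of 4.63. Ogn and Omd are lowest in PyMT Ets2-present fibroblasts, Lum and Dcn are lower in both PyMT groups than in both normal groups, and Bgn stays between 12.54 and 12.94.

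In normal fibroblasts the Ets2 difference on the brightest probe sets was above 0 for all 6 genes, from 0.08 for Bgn to 2.36 for Lum, but the mean over the 3 Bgn probe sets was -0.01. On the brightest probe sets Lum alone was past 2-fold, 1 of 6 members beside 3.02% of kept genes, and it was also past 4-fold, beside 0.288%. With the mean over probe sets the count was 2, beside 214 of 8272 genes kept at that setting, since Fmod came to 1.06 in place of 0.91. No member was at least 2-fold lower, beside 2.41% of kept genes, or 4-fold lower, beside 0.0806%. The median of the members was 0.56, against -0.02 over all kept genes. The other 5 members lay between 0.08 and 0.91, against the SD of 0.48 between probe sets of the same gene.

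**Figure D2:**
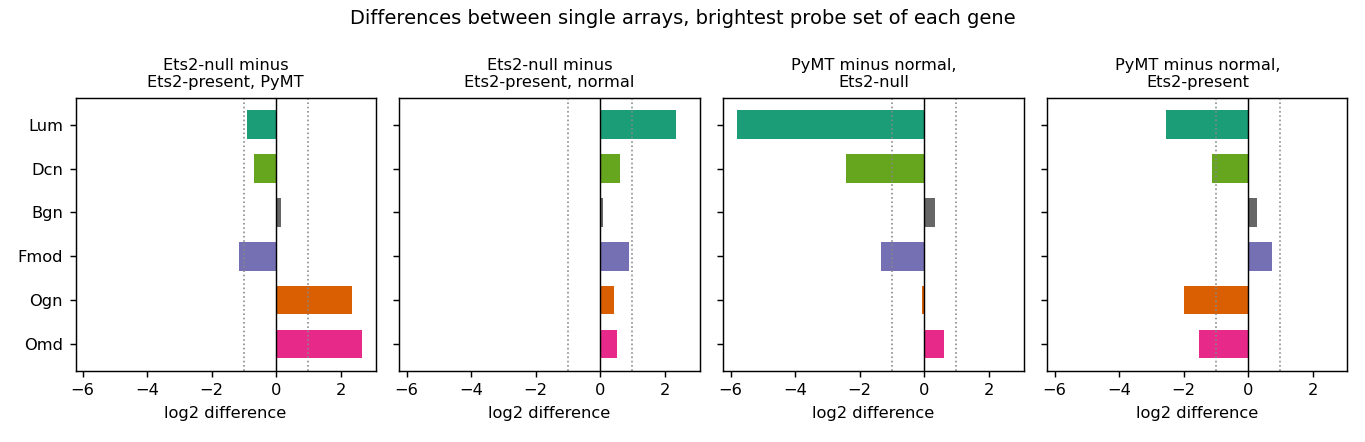
Log2 differences between single arrays for the 6 members, brightest probe set of each; bars start at 0 and dotted lines mark 2-fold. Ogn and Omd stand at 2.34 and 2.66 in the Ets2 comparison of PyMT fibroblasts, and Lum at -5.80 in the PyMT comparison of Ets2-null fibroblasts.

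PyMT fibroblasts were next set against normal fibroblasts of the same Ets2 status. Without Ets2, Lum, Dcn and Fmod were at least 2-fold lower in PyMT fibroblasts, 3 of 6 beside 11.2% of kept genes, and Lum and Dcn were at least 4-fold lower, beside 2.21%. No member was 2-fold higher, beside 9.69%, or 4-fold higher, beside 1.29%. With Ets2 present, Lum, Dcn, Ogn and Omd were at least 2-fold lower in PyMT fibroblasts, 4 of 6 beside 6.2% of kept genes, and Lum alone was 4-fold lower, beside 1.12%. With low values raised to the filter level Omd was at -0.48 in place of -1.53. The count was then 3 of 6, beside 385 of 8687 kept genes at that setting. Again no member was 2-fold higher on the brightest probe sets, beside 5.42%, or 4-fold higher, beside 0.84%. The 6 probe sets of Fmod ran from 0.73, on the brightest, to 1.03 in this comparison, so the highest was past 2-fold. The medians of the members were -0.70 in Ets2-null and -1.32 in Ets2-present fibroblasts, against 0.05 and -0.01 over all kept genes. Lum and Dcn were lower in PyMT fibroblasts at either Ets2 status, while Ogn differed by -0.07 without and -1.99 with Ets2; the difference between these single-array contrasts was not tested.

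Decorin binds collagen fibrils through its core protein and can hold TGF-beta. Dcn, with 1 probe set, read 10.07 in PyMT Ets2-null, 10.76 in PyMT Ets2-present, 12.48 in normal Ets2-null and 11.86 in normal Ets2-present fibroblasts. Both PyMT arrays were thus below both normal arrays, and the order of Ets2-null and Ets2-present was opposite in the PyMT and normal cells. Dcn was 5.32-fold lower in PyMT than in normal fibroblasts without Ets2 and 2.15-fold lower with it. Its Ets2 differences were -0.68 in PyMT and 0.62 in normal fibroblasts, each under 2-fold, and their gap was -1.31.

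Biglycan, the close relative of decorin, is also a signal to innate immune receptors when it is released from the matrix. Bgn was the member that varied least: its brightest probe set read 12.94 in PyMT Ets2-null, 12.80 in PyMT Ets2-present, 12.61 in normal Ets2-null and 12.54 in normal Ets2-present fibroblasts, a range of 0.41. Its 3 probe sets gave Ets2 differences of 0.06 to 0.14 in PyMT and -0.06 to 0.08 in normal fibroblasts. Both PyMT arrays were above both normal arrays on the brightest probe set, by 0.33 without Ets2 and 0.27 with it, both within the SD between probe sets of the same gene.

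Lumican organizes collagen fibrils in cornea, skin and other stroma. Lum read 5.82 in PyMT Ets2-null, 6.73 in PyMT Ets2-present, 11.62 in normal Ets2-null and 9.26 in normal Ets2-present fibroblasts on its 1 probe set, the widest range of the family at 5.80. All 4 arrays were separated by 0.91 or more. In normal fibroblasts Lum was 5.14-fold higher without Ets2, rank 12 from the top of 8687 kept genes, whereas in PyMT fibroblasts it was 1.88-fold lower. Between PyMT and normal fibroblasts it was 55.8-fold lower without Ets2, rank 2 from the bottom, and 5.79-fold lower with Ets2, rank 47 from the bottom. The Ets2 difference in PyMT minus that in normal fibroblasts was -3.27, rank 32 from the bottom.

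Fibromodulin competes with lumican for a site on collagen and modifies collagen cross-linking. Its brightest probe set read 10.52 in PyMT Ets2-null, 11.68 in PyMT Ets2-present, 11.86 in normal Ets2-null and 10.95 in normal Ets2-present fibroblasts. The Ets2 difference was -1.16 in PyMT (2.24-fold lower) and 0.91 in normal fibroblasts (1.87-fold higher), and the PyMT difference was -1.34 without Ets2 (2.52-fold lower) and 0.73 with it (1.66-fold higher). Fmod was therefore lowest in the PyMT Ets2-null culture and highest in the normal Ets2-null culture, with both Ets2-present cultures between. All 6 Fmod probe sets gave this order of signs: the Ets2 difference ran from -1.26 to -1.04 in PyMT and from 0.91 to 1.14 in normal fibroblasts. Of the 6, 5 are of a design that may share probes with other sequences, and the 6 may overlap each other, so they are not independent measurements.

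Osteomodulin, also called osteoadherin, is best known from mineralized tissue, where it binds osteoblasts and hydroxyapatite. Omd, on its 1 probe set, read 6.24 in PyMT Ets2-null, 3.58 in PyMT Ets2-present, 5.62 in normal Ets2-null and 5.12 in normal Ets2-present fibroblasts. The PyMT Ets2-present array stood alone, below the filter level of 4.63, and the other 3 arrays lay above it. Omd was 6.30-fold higher without Ets2 in PyMT fibroblasts, rank 10 from the top, and 1.42-fold higher in normal fibroblasts. With every low value set to the filter level, the Ets2 difference in PyMT fibroblasts came to 1.61 on the log2 scale in place of 2.66. Of the osteoblast markers, Ibsp and Alpl were below the filter level on every array. Sp7, a transcription factor of osteoblasts, read 3.56 in PyMT Ets2-null and 6.94 in PyMT Ets2-present fibroblasts, the opposite order to Omd. For both Sp7 and Omd the lower of these PyMT levels is below the filter level.

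Osteoglycin is a small proteoglycan of bone, vessel wall and other connective tissue that regulates collagen fibril growth. The brighter of its 2 probe sets read 10.36 in PyMT Ets2-null, 8.02 in PyMT Ets2-present, 10.43 in normal Ets2-null and 10.01 in normal Ets2-present fibroblasts. Here too the PyMT Ets2-present array stood below the other 3, which lay within 0.42 of each other. Ogn was 5.07-fold higher without Ets2 in PyMT fibroblasts, rank 23 from the top, and 1.34-fold higher in normal fibroblasts. Its other probe set read 8.36 in PyMT Ets2-null, 6.30 in PyMT Ets2-present, 8.45 in normal Ets2-null and 8.27 in normal Ets2-present fibroblasts, giving Ets2 differences of 2.06 in PyMT and 0.18 in normal fibroblasts. PyMT and normal fibroblasts without Ets2 differed by -0.07 and -0.09 on the 2 probe sets, and with Ets2 present PyMT fibroblasts were 3.97-fold lower on the brighter. Both the Ets2 difference in PyMT fibroblasts and this PyMT difference use the 1 PyMT Ets2-present array.

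In the plane of the 2 Ets2 differences the members fell on different sides. The Ets2 difference in PyMT minus that in normal fibroblasts was at least 2-fold upward for 2 of 6 members (Ogn at 1.92 and Omd at 2.15), beside 10.2% of kept genes, and at least 2-fold downward for 3 of 6 (Lum, Dcn and Fmod), beside 11.2%. It passed 4-fold upward for Omd, beside 1.75%, and downward for Lum and Fmod, beside 2.33%. With low values raised to the filter level Omd was at 1.10 in place of 2.15, past 2-fold and not 4-fold. This value carries the noise of 4 arrays, and 2 probe sets of the same gene disagreed in it with an SD of 0.86.

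**Figure D3:**
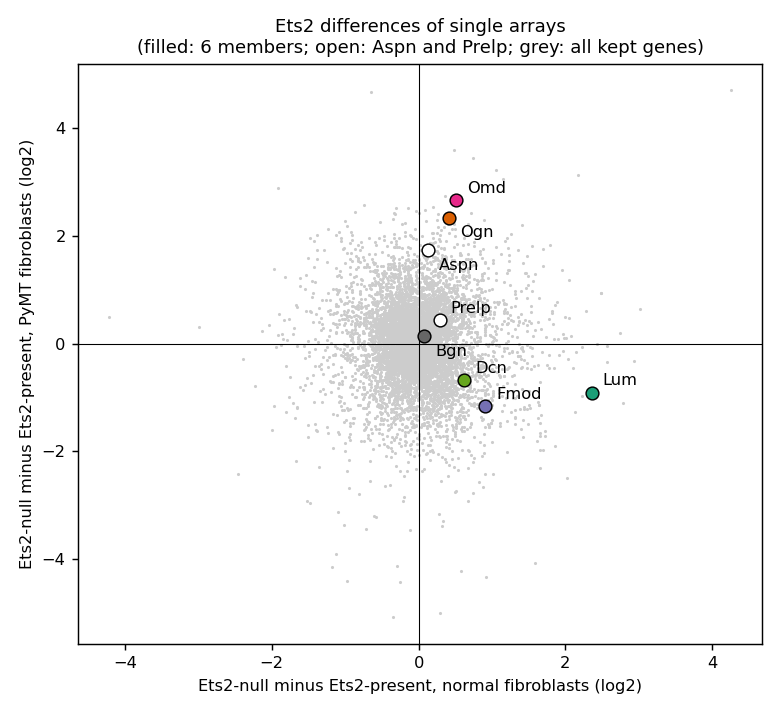
Ets2-null minus Ets2-present in normal fibroblasts (horizontal axis, log2) against the same in PyMT fibroblasts (vertical axis, log2), 1 point per gene; grey points are the 8687 kept genes, filled points the 6 members and open points Aspn and Prelp. Omd and Ogn lie at the top near the center line, Lum, Fmod and Dcn lie to the right and below 0, and Bgn lies near the origin.

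Ogn and Omd are neighbors on mouse chromosome 13, in a run with the genes of other family members, Ecm2 and asporin (Aspn), a class I protein that binds collagen and TGF-beta. In the GRCm38.p6 annotation the order is Cenpp, Ecm2, Aspn, Omd, Ogn, Nol8 and Iars, and the annotated span of Cenpp holds 4 of these genes (Ecm2, Aspn, Omd and Ogn). Aspn read 8.84 in PyMT Ets2-null, 7.11 in PyMT Ets2-present, 8.97 in normal Ets2-null and 8.84 in normal Ets2-present fibroblasts, so the same 1 array was low for all 3 genes of the run that were measured. Its Ets2 difference was 1.73 in PyMT fibroblasts (3.33-fold higher) and 0.13 in normal fibroblasts. Iars, an isoleucyl-tRNA synthetase gene just beyond the run, differed by -0.14 in PyMT and -0.20 in normal fibroblasts. Cenpp, Ecm2 and Nol8 had no probe set naming them alone.

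The starts of these genes are shown because the genes lie side by side and were low on the same array, and that of Fmod because its Ets2 difference had the opposite sign. Each is the RefSeq promoter window of GRCm38.p6, 300 bases from 250 before to 50 after the annotated start, on the + strand, 5′ to 3′. Capitals mark GGAA or its complement TTCC, the core of sites bound by ETS proteins, the family of Ets2. The windows are chr13:49544193-49544492 (Aspn), chr13:49582212-49582511 (Omd), chr13:49607765-49608064 (Ogn) and chr1:134037004-134037303 (Fmod).
Aspn: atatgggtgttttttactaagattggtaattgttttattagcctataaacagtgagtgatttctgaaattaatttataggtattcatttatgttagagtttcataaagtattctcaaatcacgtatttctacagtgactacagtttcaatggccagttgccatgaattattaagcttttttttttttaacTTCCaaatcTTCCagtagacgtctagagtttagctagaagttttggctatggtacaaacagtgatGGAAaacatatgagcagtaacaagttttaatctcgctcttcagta
Omd: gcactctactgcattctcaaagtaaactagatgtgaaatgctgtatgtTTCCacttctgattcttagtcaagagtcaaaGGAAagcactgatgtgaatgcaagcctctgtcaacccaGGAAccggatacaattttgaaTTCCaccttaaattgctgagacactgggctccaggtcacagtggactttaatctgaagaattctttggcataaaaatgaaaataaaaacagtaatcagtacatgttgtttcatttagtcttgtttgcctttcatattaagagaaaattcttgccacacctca
Ogn: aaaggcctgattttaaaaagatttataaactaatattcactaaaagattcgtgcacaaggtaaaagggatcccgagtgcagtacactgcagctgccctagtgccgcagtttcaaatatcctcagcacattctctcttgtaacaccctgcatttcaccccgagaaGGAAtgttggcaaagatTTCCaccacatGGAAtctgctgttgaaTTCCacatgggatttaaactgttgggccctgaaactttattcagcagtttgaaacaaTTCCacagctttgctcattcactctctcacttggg
Fmod: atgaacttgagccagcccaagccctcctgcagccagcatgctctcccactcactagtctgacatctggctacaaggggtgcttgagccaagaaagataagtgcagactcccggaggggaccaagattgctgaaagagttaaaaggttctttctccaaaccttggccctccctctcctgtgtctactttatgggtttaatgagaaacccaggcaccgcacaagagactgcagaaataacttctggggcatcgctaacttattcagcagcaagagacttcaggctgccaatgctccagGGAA
The core occurred 3 times in the Aspn window, 4 in Omd, 5 in Ogn and 1 in Fmod, counting both strands. It is common: 96% of 32851 promoter windows of the same length hold it, with a median of 3, and 28.6% hold 5 or more. The Bgn window held 4. The longer ETS consensus CCGGAAGT, which contains the core, was found on neither strand of these windows and occurs in 3.89% of all windows. A match of letters is a description and not a bound site. Of the 6 members, 4 had a window in the table, and Lum and Dcn are named only.

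Dcn and Lum are neighbors too, on chromosome 10, followed in the annotation by Kera and Epyc (keratocan and epiphycan), both below the filter level on every array here. Lum and Dcn shared the lower level in PyMT fibroblasts and the opposite signs of the Ets2 difference, but not the size: Lum spanned 5.80 on the log2 scale and Dcn 2.41. Btg1, an antiproliferative gene on the other side of Dcn, differed by 0.72 for Ets2 in PyMT fibroblasts and by -0.90 for PyMT in Ets2-present fibroblasts. Fmod lies on chromosome 1 beside Prelp, a class II member that binds collagen and heparan sulfate, which read 9.96 in PyMT Ets2-null, 9.52 in PyMT Ets2-present, 9.70 in normal Ets2-null and 9.41 in normal Ets2-present fibroblasts. Prelp differed by 0.44 and 0.29 for Ets2, with no sign change. Btg2, next to Fmod on the other side, differed by 0.55 in PyMT and -0.35 in normal fibroblasts, the opposite signs to Fmod. Chil1, a chitinase-like gene farther along the same run, differed by -1.48 in PyMT and 0.98 in normal fibroblasts, the same signs as Fmod. The PyMT levels of Chil1, 2.57 in Ets2-null and 4.05 in Ets2-present fibroblasts, were both below the filter level. Bgn lies on the X chromosome between Haus7 and Atp2b3, and Haus7 differed by 0.53 in PyMT and -0.68 in normal fibroblasts.

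**Figure D4:**
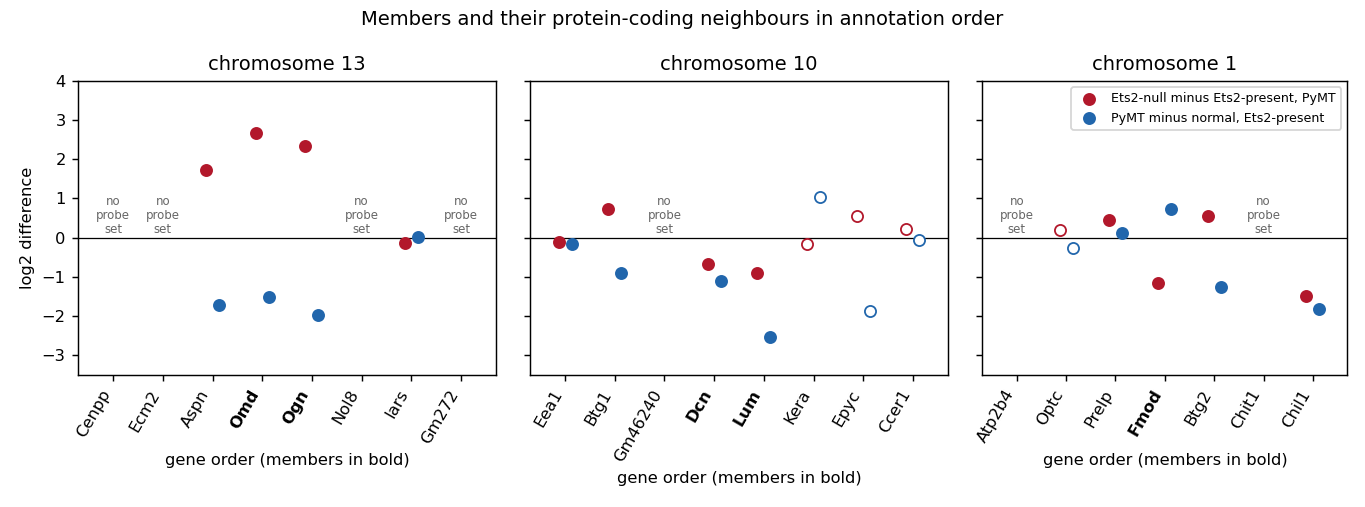
Log2 differences of genes in their order along 3 chromosomes in the GRCm38.p6 annotation (horizontal axis, order only, no distance), for Ets2 in PyMT fibroblasts (red) and for PyMT in Ets2-present fibroblasts (blue); open points are genes below the filter level on all arrays. Aspn, Omd and Ogn stand at 1.73 to 2.66 in red and -1.99 to -1.53 in blue; both differences use the PyMT Ets2-present array.

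Of the other family genes, 6 of 11 had a probe set of their own, and only Aspn and Prelp were kept. Kera, Epyc, Optc and Chad were below the filter level on all 4 arrays, and Ecm2, Nyx, Tsku, Podn and Podnl1 had no probe set naming them alone. Across the 3033 kept genes with a range of at least 1 on the log2 scale, likeness was measured as the distance between the 4 levels of 2 genes, each centered on its own mean. Nearest to Ogn were Angptl4, a secreted inhibitor of lipoprotein lipase (distance 0.14), Synpo, an actin-associated protein (0.34), and Vegfd, a lymphangiogenic growth factor (0.39). Aspn came at place 4 of 3032 (0.49) and Omd at place 13 (0.61). Nearest to Omd were Kcne4 (0.36), Hao1 (0.39) and Ighmbp2 (0.48), with Ogn at place 8 and Aspn at place 31.

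The other members had nearest genes outside the family. Lum was nearest to Egfl6 (0.83), Fxyd6 (0.89) and Plppr4 (1.08), and Dcn was at place 100 (2.71). Dcn was nearest to Cenpm (0.15), Tnfaip8 (0.21) and Bcl3 (0.22). Fmod was nearest to Fzd3, a Wnt receptor (0.09), Alg3, a mannosyltransferase of the endoplasmic reticulum (0.13), and Fxyd5 (0.14). With 4 arrays many genes lie near any pattern, and several of these genes, Cenpm, Egfl6 and Hao1 among them, were below the filter level on some arrays. Bgn, whose range was under 1, was left out.

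Some markers of fibroblasts and of related mesenchymal cells moved beside the members. Pdgfra, a receptor of fibroblasts, read 11.59 in PyMT Ets2-null and 10.18 in PyMT Ets2-present, and 11.94 in normal Ets2-null and 11.82 in normal Ets2-present fibroblasts, low on the same array as Ogn and Omd. Other fibroblast markers went the other way for Ets2 in PyMT fibroblasts, Fap by -2.37 and Thy1 by -1.25. Sox9, a transcription factor of cartilage and of other progenitors, read 9.38 in PyMT Ets2-null and 8.04 in PyMT Ets2-present, and 9.31 in normal Ets2-null and 9.09 in normal Ets2-present fibroblasts. Scx, a transcription factor of tendon cells, read 3.86 and 4.46 in the PyMT Ets2-null and PyMT Ets2-present fibroblasts, both below the filter level. In the normal Ets2-null and normal Ets2-present ones it read 7.21 and 6.36, the same order of arrays as Lum and Dcn. Tnmd, another tendon gene, did not share that order, at 6.20 in PyMT Ets2-null, 5.70 in PyMT Ets2-present, 4.25 in normal Ets2-null and 8.46 in normal Ets2-present fibroblasts. Over the whole tendon and cartilage list the summed log2 level was 9.64 in PyMT Ets2-null, 8.59 in PyMT Ets2-present, 9.73 in normal Ets2-null and 9.99 in normal Ets2-present fibroblasts, with 2 or 3 of 7 measured markers above the filter level, and Comp, Col2a1, Acan and Chad below it on every array. Fabp4, an adipocyte gene, read 9.99 and 9.96 in the PyMT Ets2-null and PyMT Ets2-present fibroblasts, against 6.82 and 7.64 in the normal Ets2-null and normal Ets2-present ones, and Adipoq was below the filter level throughout. The adipocyte list summed to 12.34 and 12.01 in the PyMT cultures, against 11.35 and 11.48 in the normal ones, with 3 of 4 measured markers above the filter level on each array. The part of these cells in the results was not tested.

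The genes that act on or with these proteoglycans were then examined in lists. Among 10 proteases known to cut them, 4 were lower by 2-fold or more and 1 was higher by as much without Ets2 in PyMT fibroblasts, beside 7.77% and 7.64% of all kept genes, with a median of -0.31 over the list. Mmp13, a collagenase, read 4.73 in PyMT Ets2-null and 9.06 in PyMT Ets2-present fibroblasts (20.1-fold lower), and Mmp9, a gelatinase, read 3.60 in PyMT Ets2-null and 7.74 in PyMT Ets2-present fibroblasts, where the PyMT Ets2-null level is below the filter level and no fold is given. Mmp3 and Bmp1, the procollagen C-proteinase that also trims the biglycan propeptide, differed by -2.67 and -1.04. Adamts5, an aggrecanase, went the other way, at 10.77 in PyMT Ets2-null and 9.25 in PyMT Ets2-present, against 7.35 in normal Ets2-null and 8.60 in normal Ets2-present fibroblasts. In normal fibroblasts 2 proteases were at least 2-fold lower without Ets2 (Adamts5 at -1.25 and Tll1 at -1.14), beside 2.41% of kept genes, and 0 were higher, beside 3.02%.

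The enzymes that build the sugar chains formed the next lists. Of 13 kept genes of chondroitin and dermatan sulfate synthesis, 1 was at least 2-fold lower without Ets2 in PyMT fibroblasts (Chst11, a chondroitin sulfotransferase, at -1.18), beside 7.77% of kept genes, and 0 were 2-fold higher, beside 7.64%. Csgalnact1, which starts the chondroitin chain, differed by 0.74. Chpf2 and Fam20b had the largest differences in normal fibroblasts, 0.90 and 0.50. Of 8 kept genes of keratan sulfate synthesis, 0 were 2-fold apart for Ets2 in either background, where so short a list can show little beside those shares. The largest there were Chst2, at 0.56 in PyMT and -0.72 in normal fibroblasts, B3gnt2 at -0.36 in PyMT and Chst5 at 0.91 in normal fibroblasts.

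Col1a1, Col1a2 and Col3a1, the abundant fibrillar collagens that the proteoglycans bind, differed by 0.23 to 0.34 for Ets2 in PyMT fibroblasts and by -0.09 to -0.02 in normal fibroblasts. Of 13 kept collagens and fiber proteins, 1 was at least 2-fold lower without Ets2 in PyMT fibroblasts, beside 7.77% of kept genes. It was Col5a3, at 4.51 in PyMT Ets2-null, below the filter level, and 7.13 in PyMT Ets2-present fibroblasts. Col14a1, a collagen found on fibril surfaces, followed at -0.94. In normal fibroblasts 1 was 2-fold higher (Eln, encoding elastin, at 1.17, above the filter level in normal Ets2-null cells only), beside 3.02%, and Col6a2 came next at 0.43. The median of the list was 0.23 in PyMT and -0.02 in normal fibroblasts.

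Of 13 kept ligands and receptors bound by the proteoglycans, 3 were at least 2-fold lower without Ets2 in PyMT fibroblasts beside 7.77% of kept genes, and 0 were 2-fold higher, beside 7.64%; the 3 were the TGF-beta ligands. Tgfb1 read 3.07 in PyMT Ets2-null and 5.71 in PyMT Ets2-present, and 4.15 in normal Ets2-null and 4.60 in normal Ets2-present fibroblasts, above the filter level on 1 array only, the one that let it pass the filter. Tgfb3 differed by -1.27 and Tgfb2 by -1.20 in PyMT fibroblasts, both well above the filter level. In normal fibroblasts Tgfb2 differed by -0.97, and Tlr2, an innate receptor for biglycan, was higher without Ets2 at 5.35 in normal Ets2-null and 3.94, below the filter level, in normal Ets2-present cells.

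**Figure D5:**
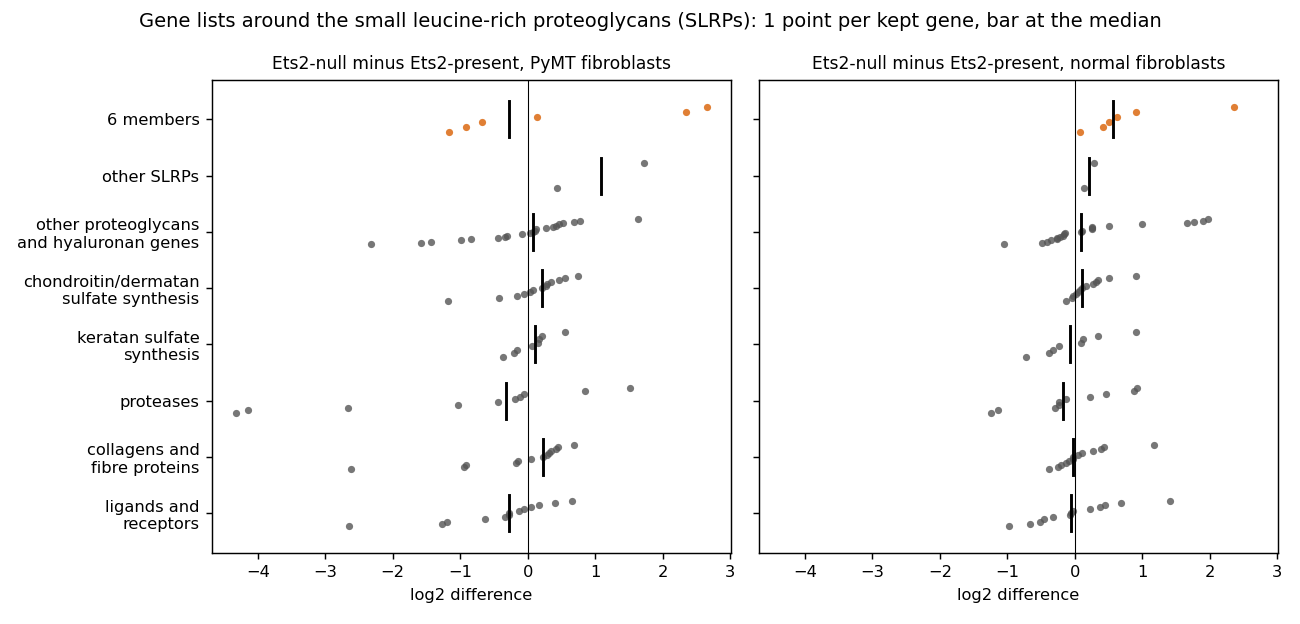
Ets2-null minus Ets2-present (horizontal axis, log2) in PyMT fibroblasts (left) and normal fibroblasts (right), 1 point per kept gene of each list, with a bar at the median. The 6 members spread from -1.16 to 2.66 in PyMT fibroblasts and from 0.08 to 2.36 in normal fibroblasts, while the genes of keratan sulfate synthesis stay between -0.72 and 0.91 in both.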

How the data were processed

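RNA of 4 fibroblast cultures was measured on 1 array each, and the groups were taken from the sample labels. The deposited table holds log2 levels that the authors made by RMA (background correction, quantile normalization between arrays and summary per probe set; version not stated). Quantile normalization gives arrays like distributions, so a shift of most genes would not show. Which other arrays were normalized together with these 4 is not given in the sources used here, and detection calls were not used here.

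Probe sets were named from the platform annotation: 20393 of 22690 (64 of them controls) had 1 gene. The probe set with the highest mean stood for each of 12394 genes, which was kept if its highest value reached 4.632, the 40th percentile of the table. Log2 differences of single arrays were taken and genes at least 2-fold and 4-fold apart counted (Python 3.11.15, pandas 2.3.3, numpy 2.4.6). The methods of the study joined a fold threshold of 4 with a probe-level p-value, which was not computed here from the deposited summary values; 1 array per group allows no test of the groups. Counting and likeness were checked on simulated data.

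Named are all probe sets of the 6 members, Ets2, the other family genes, the 2 kept genes of each pathway list with the largest Ets2 difference in either culture, chromosomal neighbors, the 3 genes nearest to each member and the markers. Mmp3, Bmp1, Tgfb2 in PyMT fibroblasts, the fibrillar collagens and the markers given with values were named after their values were seen. The members and lists were chosen with earlier results of these data known.

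The array's genome build is not given in the sources used here, so GRCm38.p6 served for names, gene order and RefSeq promoter windows only. Motifs were searched on both strands. Alternatives were the mean over probe sets, no filter, the 60th percentile (6.776), low values raised to the filter level, centering on array medians and cyclic loess (limma 3.58.1 in R 4.3.3). A planned description of the proteins was not made.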

Additional observations from a re-analysis of the deposited data

Results flagged for a closer look

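For 4 members the same comparison had opposite signs in 2 backgrounds, which marked them for a closer look. Each is 1 array against 1 array, and the difference between the backgrounds was not tested. The Ets2 difference (Ets2-null minus Ets2-present, log2) was -0.91 in PyMT and 2.36 in normal fibroblasts for Lum. For Dcn it was -0.68 in PyMT and 0.62 in normal fibroblasts, and for Fmod -1.16 in PyMT and 0.91 in normal fibroblasts. The PyMT difference (PyMT minus normal, log2) was -1.34 in Ets2-null and 0.73 in Ets2-present fibroblasts for Fmod. For Omd it was 0.62 in Ets2-null and -1.53 in Ets2-present fibroblasts, and the PyMT Ets2-present level of Omd was below the filter level. The 2 probe sets of a gene disagreed with an SD of 0.48 to 0.70 in these comparisons, so the Dcn values lie near that spread.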

How the results depend on the processing

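No paired analysis was possible because the labels carry no replicate numbers and each group has 1 array; for the same reason no array could be left out. No value of a member past 2-fold changed sign under the 6 alternatives. Of the counts and medians over the members, 86 values stayed close and 4 moved, where close means within 1.5 times for a count and, for a median or a single value, a shift under the SD between probe sets of the same gene in that comparison (0.48 to 0.86). Medians that shifted by less than that SD include those at the 60th percentile for PyMT in Ets2-null fibroblasts (-1.34 in place of -0.70) and for the Ets2 difference in PyMT minus that in normal fibroblasts (-1.31 in place of -0.62). With the filter at the 60th percentile, Omd dropped out, and 1 member in place of 2 was at least 2-fold higher for Ets2 in PyMT fibroblasts and for the Ets2 difference in PyMT minus that in normal fibroblasts. Over all genes kept at that filter, 227 and 340 of 6070 were at least 2-fold higher in these comparisons. With the mean over probe sets, 2 members in place of 1 were at least 2-fold higher for Ets2 in normal fibroblasts, Fmod (1.06) joining Lum. This stood beside 214 of 8272 genes kept at that setting. With low values raised to the filter level, the median of the PyMT difference in Ets2-present fibroblasts was -0.79 in place of -1.32; for Omd alone the values were then 1.61 for Ets2 in PyMT fibroblasts, -0.48 for PyMT in Ets2-present fibroblasts and 1.10 for their Ets2 difference minus that in normal fibroblasts. Of the other values of single members, 172 stayed close.

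Counts over all genes depended on low levels. For Ets2 in PyMT fibroblasts, 664 kept genes were at least 2-fold higher and 675 lower; there were 227 and 319 at the 60th percentile, 376 and 496 with low values raised, and 1029 and 821 without a filter. For Ets2 in normal fibroblasts, the 262 higher and 209 lower became 82 and 59, 143 and 104, and 382 and 338 under the same settings. For PyMT in Ets2-null fibroblasts, the 842 higher and 970 lower became 325 and 524 at the 60th percentile, with 523 higher with low values raised, and for PyMT in Ets2-present fibroblasts the 471 and 539 became 203 and 299, with 314 higher. For the Ets2 difference in PyMT minus that in normal fibroblasts, the 886 higher and 969 lower became 340 and 485 at the 60th percentile, 580 higher with low values raised and 1495 higher without a filter. At 4-fold, the 60 higher and 82 lower for Ets2 in PyMT fibroblasts became 28 and 41 at the 60th percentile, 29 and 42 with low values raised, 40 higher with the mean over probe sets, and 84 higher and 67 lower with arrays centered on their medians. At 4-fold for Ets2 in normal fibroblasts, 25 higher and 7 lower became 16 and 2 at the 60th percentile and 16 and 1 with low values raised; for PyMT, 112 higher in Ets2-null and 73 in Ets2-present fibroblasts became 69 and 42 at the 60th percentile and 68 and 42 with low values raised. The 4-fold count of the Ets2 difference in PyMT minus that in normal fibroblasts, 152 higher and 202 lower, became 46 and 91 at the 60th percentile, 64 and 110 with low values raised and 206 higher without a filter. Centering on array medians moved the median of all kept genes to 0.12 in place of 0.02 for Ets2 in PyMT fibroblasts. The signal over background limits Omd most, since 1 of its 4 levels is below the filter level.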

Other observations

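The larger proteoglycans and the hyaluronan genes, 21 of 26 kept, were compared between PyMT and normal fibroblasts and by Ets2. Without Ets2, 8 were lower by 2-fold or more and 3 higher by as much in PyMT fibroblasts, beside 11.2% and 9.69% of all kept genes. Of these 8, only Gpc1 and Tgfbr3 were above the filter level in both compared cultures. Gpc3, Prg4, Spock1, Spock2, Spock3 and Has1 were below it in PyMT Ets2-null fibroblasts and passed the filter only through other arrays. The count of 8 is therefore no measure of an excess over the share of all kept genes. With Ets2 present, 3 of the 21 were lower and 2 higher, beside 6.2% and 5.42%. Spock3, a testican, read 3.16 in PyMT Ets2-null and 4.14 in PyMT Ets2-present, against 7.73 in normal Ets2-null and 8.78 in normal Ets2-present fibroblasts. Gpc3, a glypican held at the cell surface, read 4.35 in PyMT Ets2-null and 4.24 in PyMT Ets2-present, against 7.97 in normal Ets2-null and 5.99 in normal Ets2-present fibroblasts, highest in the same culture as Lum. All PyMT levels of Spock3 and Gpc3 were below the filter level, which limits the size of these differences. Tgfbr3, the betaglycan co-receptor of TGF-beta, read 6.83 and 6.69 in the PyMT Ets2-null and PyMT Ets2-present cultures, against 8.79 and 8.53 in the normal Ets2-null and normal Ets2-present ones. These genes were named after their values were seen.

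By Ets2 in PyMT fibroblasts, 1 of the 21 was at least 2-fold higher (Ncan at 1.64, on low levels), beside 7.64% of kept genes, and 3 were 2-fold lower, beside 7.77%. The lowest was Prg4, lubricin, at 3.93 in PyMT Ets2-null, below the filter level, and 6.25 in PyMT Ets2-present fibroblasts. Prg4 read 6.75 in normal Ets2-null and 5.08 in normal Ets2-present fibroblasts. In normal fibroblasts 4 were at least 2-fold higher without Ets2, led by Gpc3 (1.98) and Spock1 (1.90), beside 3.02%, and 1 was lower, beside 2.41%. The normal Ets2-present level of Spock1, 4.36, was below the filter level. The abundant Vcan, the large chondroitin sulfate proteoglycan versican, differed by 0.69 in PyMT and -0.22 in normal fibroblasts.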
